A study of Mus musculus with 2 samples.

Results

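Non-classical monocytes, also called patrolling monocytes, are the blood monocytes that crawl along the inner wall of vessels. Here they were taken from single-cell RNA sequencing of mouse tumour leukocytes by a gate on the unique molecular identifiers (UMIs, the counted RNA molecules) of each cell barcode. A barcode entered when it held at least 200 genes and at most 10% mitochondrial UMIs, at least 1 UMI of Csf1r, the receptor for the monocyte growth factor CSF1, and at least 3 UMIs summed over Ace, Treml4, Ear2 and Adgre4. It also had to hold under 5 C1qa, C1qb and C1qc UMIs per 10000, at most 1 UMI of the Cd3d, Cd3e and Cd3g genes together, at most 1 of Cd209a, and under 5 of Mmp12 and Arg1 together. These limits kept 739 of 22044 barcodes. Of these, 272 of 12179 belonged to the library labelled WT, and the library labelled cKO gave 467 of 9865.

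Cells carrying CD45, the common surface protein of leukocytes, had been sorted by flow cytometry from enzyme-digested tumours of C57BL/6 mice and captured with a droplet kit that reads the 5′ end of transcripts. Mice labelled WT gave the first library. The second came from mice labelled Ythdf2 cKO, which names a conditional deletion of the gene of a reader of the m6A mark on RNA. The sources used here do not give the tumour type, the driver of the deletion, the age of the mice or the number pooled. Each label has 1 library, so nothing could be tested, and each difference below describes these libraries. A difference between them cannot be told apart from a difference between genotypes.

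In mice, non-classical monocytes arise largely from classical, Ly6C-high monocytes. The orphan nuclear receptor NR4A1 is needed for them, and CX3CR1 and the integrin LFA-1 serve their survival and crawling. They are known for low Ly6C and CCR2, for the Fc receptor FCGR4, and for surveying the endothelium, clearing debris and taking up tumour material in vessels of the lung.

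Depth differed between the libraries. Gated cells of the library labelled WT held a median of 6615 UMIs, and those of the library labelled cKO held 11986. Their UMIs summed to 2048682 and 6195236. Of the barcodes kept, the medians were 5592 and 8480. The libraries shared 43 barcodes, none of them gated in both. Levels are given as counts per 1000000 UMIs of the summed cells (CPM), always in the order labelled WT, then labelled cKO. Ranges in parentheses are exact 95% intervals, Poisson for CPM, conditional binomial for ratios and Clopper-Pearson for shares, and cover counting error only.

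Ythdf2 itself went against the label. In the gated cells it stood at 53.7 CPM (44.1 to 64.7) and 396 CPM (380 to 412), from 110 and 2451 UMIs, 7.37-fold higher (6.09 to 9.003) in the library labelled cKO. The same direction held in Ly6c2 monocytes, at 49.3 and 378 CPM, and in C1q macrophages, at 80.4 and 444 CPM. It was small in T cells, at 55.6 and 68.9 CPM, and in NK cells, at 56.0 and 67.3 CPM. Where in the gene each UMI lies is not recorded in a count matrix, so these values do not tell a transcript that lacks the deleted part from one that holds it. An exchange of the labels, which would turn every direction between the libraries, cannot be told apart from this either. Every direction below is therefore one between the library labelled WT and the library labelled cKO.

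The 4 gate genes are the ones that chose the cells, and their levels are given as a description. Ace, the angiotensin-converting enzyme, stood at 376 CPM (350 to 404) and 245 CPM (233 to 258). Treml4, a receptor of the TREM family, stood at 186 and 121 CPM. Adgre4, an adhesion G protein-coupled receptor, stood at 217 and 167 CPM. Ear2, a secreted ribonuclease, stood at 168 and 157 CPM. Ace was found in 83.1% and 80.5% of the cells and Ear2 in 47.4% and 54.8%. The level of Ear2 is uncertain because it has near-identical paralogues. One of these, Ear1, had 181 UMIs over all barcodes labelled WT, 53 of them in gated cells, and 0 over all barcodes labelled cKO.

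The threshold lay on a slope rather than in a gap. Of the barcodes that met every other limit, 98 and 153 had a 4-gene sum of 2, just outside, and 61 and 93 had a sum of 3, just inside. The median sum of the gated cells was 5.5 and 6. All 4 genes were found in 60 and 133 cells, and a single gene carried the sum in 23 and 41. The class thus spans a range of this sum, and whether its cells form a separate cluster was not tested.

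Genes that the gate did not use followed the sum. In barcodes with a sum of 2, Nr4a1 stood at 546 and 381 CPM. At sums of 3 to 4 it stood at 730 and 517 CPM, and at 10 or more at 1928 and 1095 CPM. Eno3, the muscle-type enolase, stood at 18.4 and 9.72 CPM at a sum of 2 and at 321 and 165 CPM at 10 or more. Both genes were thus higher with a higher sum in each library. Ly6c2, which encodes the Ly6C antigen of classical monocytes, went the other way, from 1504 and 1484 CPM at a sum of 2 to 495 and 849 CPM at 10 or more. These bins were chosen after values were seen. Median depth over the bins ran from 5635.5 to 7424.5 UMIs under the label WT, and from 11169 to 13044 under the label cKO.

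**Figure D1:**
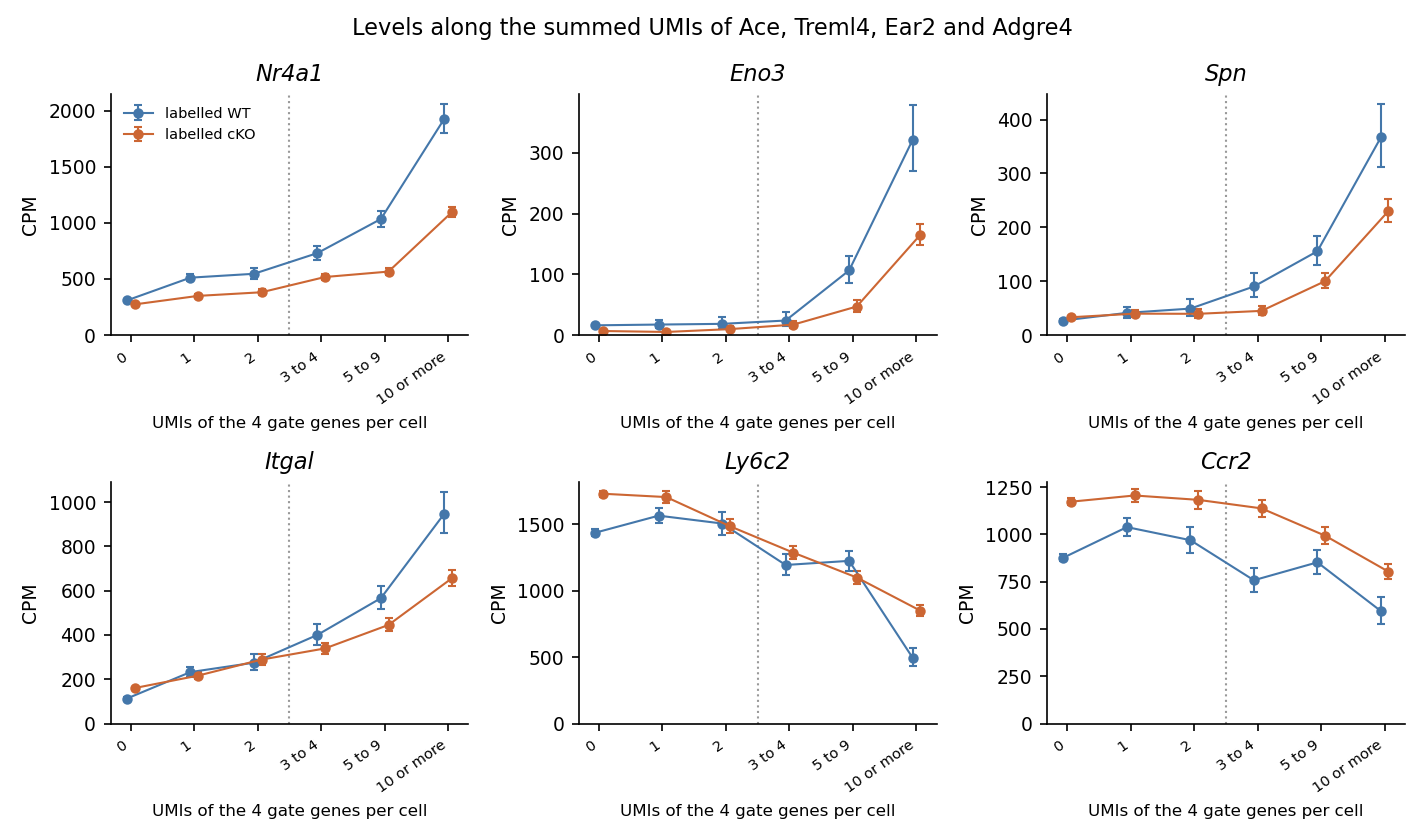
CPM (vertical axis, linear, from 0) of 6 genes that the gate did not use, by the UMIs of Ace, Treml4, Ear2 and Adgre4 per cell (horizontal axis), for barcodes that met every other limit; bars are exact 95% Poisson intervals and the dotted line is the threshold. Nr4a1, Eno3, Spn and Itgal are highest at sums of 10 or more in both libraries, where Ly6c2 and Ccr2 are lowest.

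The label was checked against 2 markers outside the rule and against further genes known for this cell type. The comparison class was Ly6c2 monocytes, 684 and 881 barcodes with at least 3 Ly6c2 UMIs and none of the 4 gate genes. Nr4a1 stood at 1113 and 724 CPM in the gated cells against 388 and 285 CPM in Ly6c2 monocytes. Eno3 stood at 122 and 75.5 CPM against 4.64 and 6.33 CPM. Of 15 other non-classical monocyte genes of at least 10 CPM, 14 were at least 1.5-fold higher than in Ly6c2 monocytes in each library, where 10.4% and 6.23% of all genes of at least 10 CPM were. The exception was Cebpb, a myeloid transcription factor, with ratios of 1.39 and 1.19. The markers known to be high in the type were therefore present. Of those known to be low, Ly6c2 was found in 75.4% and 90.6% of the gated cells and Ccr2 in 80.9% and 94.0%. The name of the class thus rests on the high markers and does not hold for low Ly6c2 and Ccr2 in every cell. Since the cells were chosen on genes of the same program, these values are a description and not a test.

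Surface and adhesion genes of the type were among the most different. Spn, the sialoglycoprotein CD43, stood at 177 and 124 CPM against 29.8 and 29.4 CPM in Ly6c2 monocytes. Cx3cr1, the fractalkine receptor, stood at 303 and 199 CPM against 47.7 and 80.4 CPM. Itgal, the alpha chain of LFA-1, stood at 587 and 478 CPM against 149 and 160 CPM. Of the transcription factors, Pou2f2, which encodes OCT2, stood at 506 and 370 CPM against 125 and 114 CPM. Each of these was higher in the gated cells of both libraries with intervals that did not meet.

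By the rule for naming genes, the 15 genes furthest above Ly6c2 monocytes in both libraries were Eno3, Hfe, Grk3, Nxpe4, Gngt2, Spn, Abi3, Smpdl3b, Cyth3, Pou2f2, Ceacam1, Itgal, Zfyve9, Stk10 and Rap1gap2. Hfe, the haemochromatosis gene of iron balance, was 6.78-fold (5.18 to 8.96) and 5.84-fold (4.90 to 6.99) higher. Grk3, a kinase that desensitises G protein-coupled receptors, was 6.29-fold and 5.54-fold higher. Gngt2, a G protein gamma subunit, was 6.48-fold and 4.65-fold higher and was found in 94.5% and 96.6% of the gated cells. Of the 3028 genes of at least 50 CPM and 30 UMIs in both comparisons, 5.71% were at least 1.5-fold higher in both libraries. By library, 9.31% and 6.72% were higher.

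The 15 genes named on the lower side were C3ar1, Dab2, Spp1, Ccl7, Qpct, Ccl12, Adam8, Olfm1, Sdc4, Ndrg1, Lpl, Ero1l, Dmkn, Fdps and Ly6a. Spp1, which encodes osteopontin, stood at 100.1 and 159 CPM in the gated cells against 670.0 and 576 CPM in Ly6c2 monocytes. C3ar1, the receptor for the complement fragment C3a, stood at 47.8 and 74.3 CPM against 200 and 282 CPM. Ccl7, a CCR2 ligand, stood at 191 and 167 CPM against 656 and 543 CPM. Of all genes measured, 3.80% were at least 1.5-fold lower in both libraries, and 6.99% and 5.30% by library.

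Glycolysis and hypoxia genes were lower as a group. Of 19 members of at least 10 CPM, 17 and 15 were at least 1.5-fold lower than in Ly6c2 monocytes, against 7.56% and 5.32% of all genes of at least 10 CPM, and none was higher. Ero1l, an endoplasmic reticulum oxidase induced by hypoxia, stood at 93.2 and 72.8 CPM against 224 and 189 CPM. Ndrg1, another hypoxia-induced gene, stood at 47.3 and 46.0 CPM against 120 and 129 CPM. The 2 cell classes came from the same libraries, so the direction did not depend on the label.

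Genes of classical monocytes were not absent. Ly6c2 was found in 75.4% (69.8 to 80.4) and 90.6% (87.6 to 93.1) of the gated cells, at 1056 and 1081 CPM, against 2191 and 2003 CPM in Ly6c2 monocytes, whose gate used it. After thinning of cells to a common depth of 4988 UMIs it was found in 82.9% and 83.1%. This left out 55 and 16 gated cells with fewer UMIs, so the thinned shares are not of the same cells. Gated cells without Ly6c2 had a median depth of 4706 and 7838 UMIs. In B cells thinned to 1939 UMIs, a type that should lack it, the share was 6.15% and 5.59%. Ccr2, the receptor for CCL2, stood at 762 and 981 CPM against 1175 and 1241 CPM. The median gated cell held 5.29 and 5.90 Ly6c2 UMIs per 10000. Ccr2 was found in 80.9% and 94.0% of the gated cells. Of 15 classical genes, 8 under the label WT and 3 under the label cKO were at least 1.5-fold lower than in Ly6c2 monocytes, and none was 1.5-fold higher. Of all genes of at least 10 CPM, 7.56% and 5.32% were lower and 10.4% and 6.23% higher. Some classical genes lay on the other side of equality, such as Plac8, at 5052 and 6046 CPM against 3567 and 4220 CPM.

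**Figure D2:**
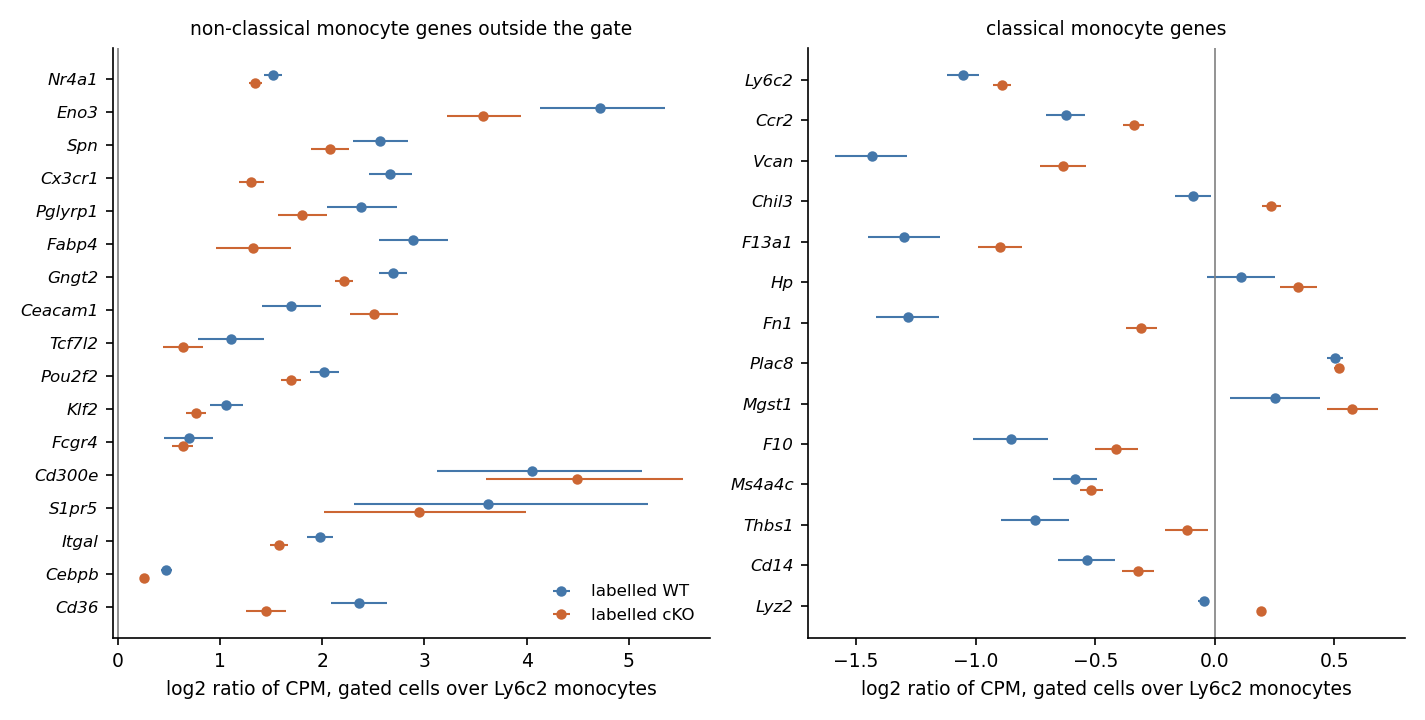
Log2 ratio of CPM in gated cells over Ly6c2 monocytes of the same library (horizontal axis), for non-classical monocyte genes outside the gate (left) and classical monocyte genes (right, 1 member not drawn); bars are exact 95% intervals and each colour is 1 library. All non-classical genes shown lie above 0 in both libraries, while Ly6c2 and Ccr2 lie below 0.

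Split by Ly6c2, the gated cells ranged widely. Cells without a Ly6c2 UMI numbered 67 and 44, those with up to 10 per 10000 numbered 101 and 257, and those above 10 numbered 104 and 166. Nr4a1 stood at 1854 and 1640 CPM in cells without Ly6c2, at 935 and 771 CPM in the middle stratum and at 971 and 538 CPM in the highest. Eno3 stood at 304 and 257 CPM, then 95.4 and 92.997 CPM, then 69.8 and 28.4 CPM. The cells without Ly6c2 were 24.6% and 9.42% of the gated cells, and their median depth was 4706 and 7838 UMIs, lower than in the other strata. Both the strata and their bounds were chosen after values were seen.

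The share of gated cells was higher in the library labelled cKO. They made up 2.23% (1.98 to 2.51) of the barcodes kept under the label WT. Under the label cKO they made up 4.73% (4.32 to 5.17). The ratio was 2.12 (1.82 to 2.47). The gate counts raw UMIs, and the library labelled cKO was deeper. Barcodes of at least 4988 UMIs, 6622 and 7754 of them, were then thinned to 4988 UMIs and gated again. The gated shares of these were 2.13% (1.80 to 2.51) and 3.06% (2.68 to 3.46), a ratio of 1.44 (1.16 to 1.78). Shallower barcodes were left out, so the denominator changed as well as the depth. Of barcodes that met every limit but the 4-gene sum, the thinned shares were 12.02% and 13.4%, a ratio of 1.12 (0.904 to 1.39). Without the cells with over 1 Ly6c2 UMI, also a limit on raw UMIs, 96 and 94 cells were left, and the ratio was 1.21 (0.900 to 1.62). These last 2 intervals hold 1. The ratio among barcodes that met every limit but the sum was 1.29 (1.11 to 1.51) before thinning. Among barcodes with Csf1r it was 2.25 (1.93 to 2.62) before and 2.02 (1.63 to 2.51) after thinning. The size of the difference thus depended on the gate and the denominator.

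**Figure D3:**
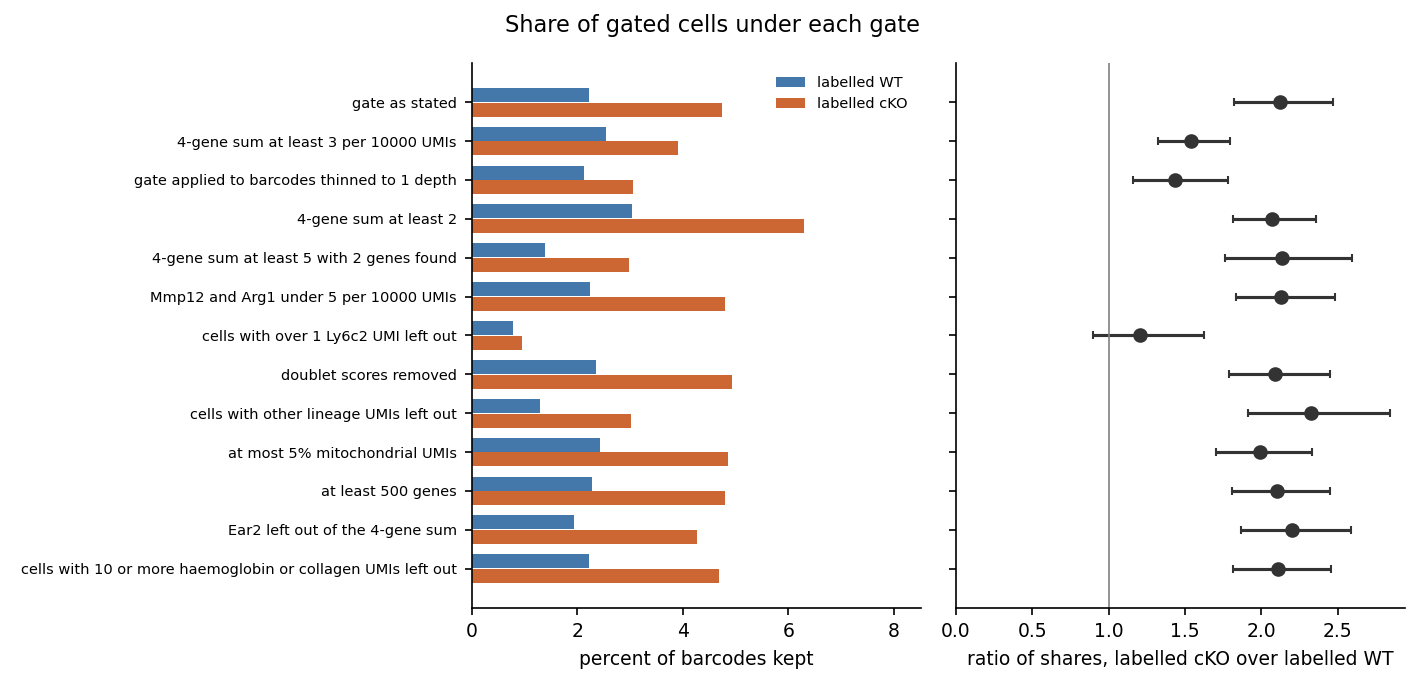
Gated cells as a percent of barcodes kept (left, bars from 0) and the ratio of the shares, labelled cKO over labelled WT (right, points with exact 95% intervals), under the gate as stated and each other gate. The ratio is 2.12 under the gate as stated, 1.54 with the sum per 10000 UMIs, 1.44 after thinning and 1.21 without cells with over 1 Ly6c2 UMI.

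A share is set by its denominator too. C1q macrophages were 10.3% and 2.89% of the barcodes kept, Ly6c2 monocytes 5.62% and 8.93%, and T cells 23.7% and 31.05%. No count of cells per tumour is in the files, so more non-classical monocytes and fewer other cells cannot be told apart. The sort and the digestion can also set these shares.

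Within the gated cells, most of the 15 named genes that stood highest in the library labelled cKO respond to interferon. They were Emp1, Ythdf2, Ifit3, Ifit2, Isg15, Cxcl9, Socs1, Hspa1a, Pml, Mx1, Ralgds, Upp1, Ifi47, Irgm1 and Gbp5. The floor was 50 CPM in either library with 30 UMIs in all, which 3265 genes met. Of these, 201 were at least 1.5-fold higher in the library labelled cKO, or 6.16%. Another 108 were at least 1.5-fold lower, or 3.31%, which makes 9.46% in either direction. The median log2 ratio of all these genes was -0.06. With every cell weighted equally the lower count was 69.

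Interferon gamma is a cytokine of T and NK cells that induces guanylate-binding proteins, immunity-related GTPases and CXCR3 ligands. Of 18 members of this list of at least 10 CPM, 14 were at least 1.5-fold higher in the library labelled cKO, and none was lower. Among all 7542 genes of at least 10 CPM, 4.91% were higher and 9.51% lower. The median log2 ratio of the list was 1.17, against -0.11 for all these genes. Both lists of interferon genes were drawn up with earlier results of these data known.

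Cxcl9, a chemokine that attracts CXCR3-bearing T cells, stood at 196 CPM (177 to 216) and 748 CPM (727 to 770), 3.82-fold higher (3.45 to 4.25). It was found in 15.4% and 36.2% of the cells, and in 16.6% and 29.3% at 4988 UMIs. In B cells at 1939 UMIs the share was 2.31% and 2.23%, from cells with a median depth of 2292 and 3533 UMIs before thinning. Cxcl10, its relative, stood at 781 and 2201 CPM, 2.82-fold higher (2.68 to 2.97). These chemokine genes were thus higher both in level and in the share of cells.

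The GTPases that defend against intracellular pathogens stood with them. Gbp2 stood at 265 and 756 CPM, 2.85-fold higher (2.61 to 3.12). Gbp5 stood at 63.5 and 189 CPM, 2.98-fold higher (2.48 to 3.60). Irgm1, a regulator of the immunity-related GTPases, stood at 119 and 354 CPM, 2.99-fold higher (2.62 to 3.42), and was found in 39.0% and 84.4% of the cells. The share for Irgm1 at 4988 UMIs was 34.6% and 68.3%, against 6.15% and 15.6% of B cells at 1939 UMIs. The difference was thus also there at matched depth.

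Regulators of the pathway varied. Irf1, a transcription factor of the pathway, stood at 360 and 638 CPM, 1.77-fold higher (1.64 to 1.92). Socs1, a feedback inhibitor of this signalling, stood at 16.6 and 61.5 CPM, 3.71-fold higher (2.61 to 5.43). Ciita, a regulator on the same list, had a ratio of 0.864. Of 10 checkpoint and costimulatory ligands measured, 2 were at least 1.5-fold higher and none lower, with a median log2 ratio of -0.05. Among all genes of at least 10 CPM, 4.91% were higher and 9.51% lower. Cd274, which encodes the checkpoint ligand PD-L1, stood at 146 and 266 CPM, 1.82-fold higher (1.61 to 2.06). Nos2 had 0 UMIs in the library labelled WT, which allows up to 3, and 41 in the library labelled cKO.

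Type I interferons are released on viral sensing and induce antiviral genes. Of 22 list members of at least 10 CPM, 19 were at least 1.5-fold higher in the library labelled cKO and none was lower, with a median log2 ratio of 1.02. Among all genes of at least 10 CPM, 4.91% were higher and 9.51% lower. Ifit3, an antiviral RNA-binding protein, stood at 43.0 and 208 CPM, 4.84-fold higher (3.90 to 6.08). Isg15, a ubiquitin-like modifier, stood at 60.5 and 240 CPM, 3.97-fold higher (3.30 to 4.81). Mx1, an antiviral GTPase, stood at 42.0 and 134 CPM, 3.18-fold higher (2.55 to 4.02). Irf7, which amplifies type I interferon, stood at 234 and 476 CPM, 2.03-fold higher (1.84 to 2.24). Bst2, an antiviral membrane tether, was an exception, at 45.9 and 34.9 CPM, a ratio of 0.760 (0.594 to 0.979).

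**Figure D4:**
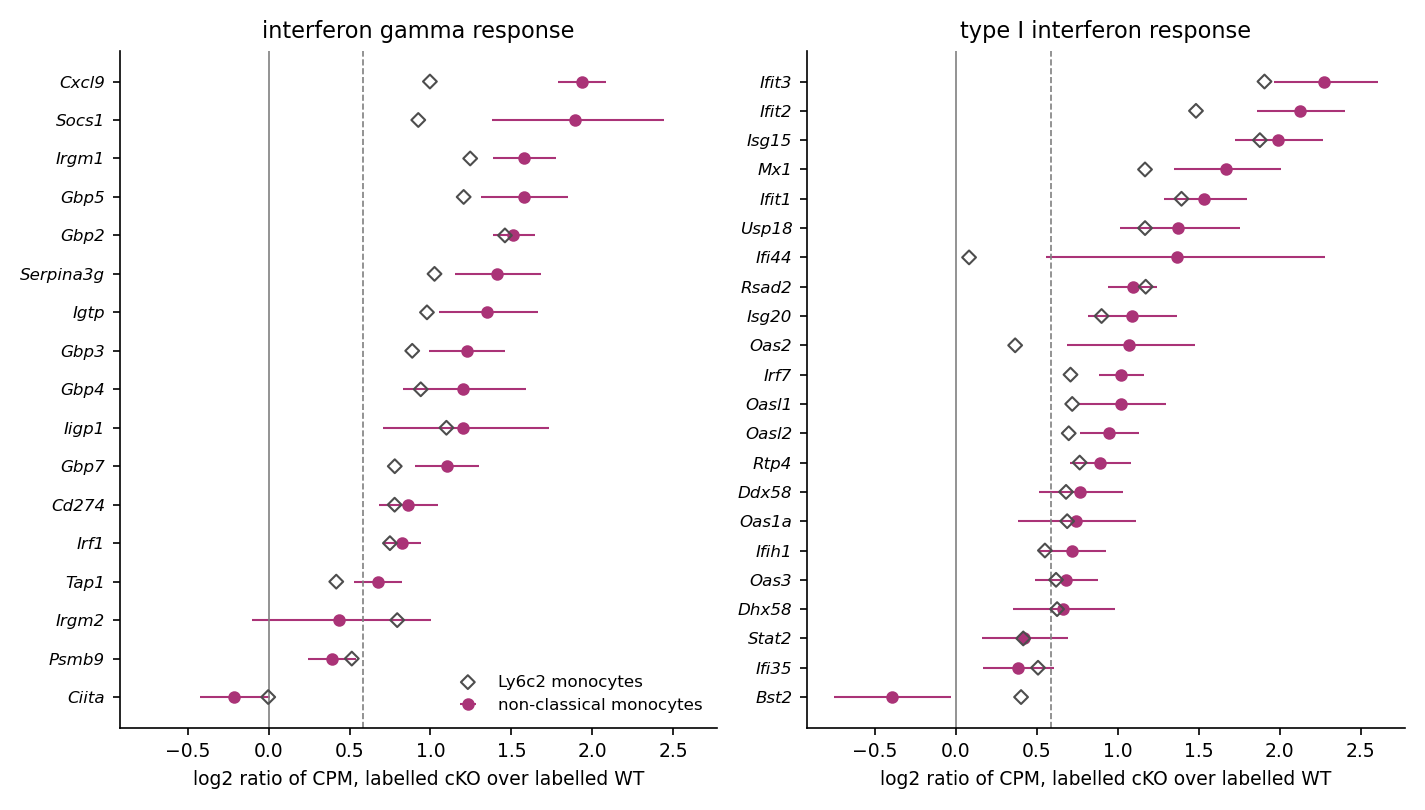
Log2 ratio of CPM, labelled cKO over labelled WT (horizontal axis), for the measured members of the interferon gamma list (left, 1 member not drawn) and the type I list (right); filled points are the gated cells with exact 95% intervals, open diamonds the Ly6c2 monocytes, and the dashed line is 1.5-fold. Of the lists' measured members, 14 of 18 and 19 of 22 were at or beyond 1.5-fold in the gated cells, and all of these are drawn.

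The summed interferon lists were higher in the library labelled cKO in each stratum of Ly6c2, though not every member was. In cells without a Ly6c2 UMI the summed interferon gamma list stood at 1879 and 3819 CPM, a ratio of 2.03 (1.85 to 2.23). In the middle stratum the ratio was 2.29 (2.18 to 2.40), and in the highest it was 1.89 (1.81 to 1.98). The summed type I list had ratios of 1.67 (1.48 to 1.90), 1.88 (1.77 to 1.98) and 2.22 (2.12 to 2.34) in the same order. In barcodes gated again after thinning, 14 of 18 interferon gamma genes and 16 of 22 type I genes were at least 1.5-fold higher, where 9.76% of all genes were, and none was lower, where 12.1% of all genes were.

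The same direction was seen in Ly6c2 monocytes, so it was not particular to the gated cells. In Ly6c2 monocytes Cxcl9 stood at 383 and 765 CPM, Isg15 at 96.9 and 359 CPM and Irgm1 at 112 and 267 CPM. Markers of NK cells moved with the interferon genes: 4 of 5 list members were at least 1.5-fold higher in the library labelled cKO, where 4.91% of all genes were. Without cells with over 1 Ly6c2 UMI, the NK median turned from 1.40 to -1.59 while the interferon gamma median was 1.31. Their summed level was 70.3 and 194 CPM, and no member was at 0. Gzma, a granzyme of NK and T cells, stood at 37.1 and 132 CPM and was found in 3.69% and 10.9% of cells at 4988 UMIs, against 3.08% and 4.47% of B cells at 1939 UMIs. Their part in the interferon result was not tested. Leaving out cells with any UMI of B, T, NK, dendritic or melanocytic genes kept 158 and 298 cells, in which the interferon gamma median was 1.24 and the type I median 1.03.

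Sequences upstream of these genes are shown because the interferon lists stood apart as groups and some members hold short motifs there. The RefSeq promoter table (GRCm38.p6) gives the 250 bases before each start, 5′ to 3′ on the gene's strand. The interferon-stimulated response element was searched as GAAA, any 2 bases and GAAA again. The gamma-activated site, the element of interferon gamma signalling, was searched as TTCNNNGAA, both on both strands with overlapping matches allowed. Capitals mark the matches. The search and the choice of promoters were made after values were seen.

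Isg15, chr4:156200819-156201068, minus strand, 3 overlapping response elements, the first 78 bases before the start, and Ifit3, chr19:34583279-34583528, plus strand, 2 such elements:
Isg15: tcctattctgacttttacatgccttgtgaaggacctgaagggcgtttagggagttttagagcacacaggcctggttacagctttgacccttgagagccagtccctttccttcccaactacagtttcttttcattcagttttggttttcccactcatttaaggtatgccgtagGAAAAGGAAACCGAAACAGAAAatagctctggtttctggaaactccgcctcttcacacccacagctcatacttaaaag
Ifit3: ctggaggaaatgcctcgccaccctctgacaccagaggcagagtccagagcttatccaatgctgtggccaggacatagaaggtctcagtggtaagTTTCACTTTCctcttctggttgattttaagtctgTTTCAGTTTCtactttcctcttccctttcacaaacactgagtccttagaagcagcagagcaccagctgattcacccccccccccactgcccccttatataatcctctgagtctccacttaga
Both belong to the type I list, and the first element of Ifit3 lies 156 bases before the start.

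Irgm1, chr11:48871421-48871670, minus strand, Socs1, chr16:10785537-10785786, minus strand, and Gbp2, chr3:142620413-142620662, plus strand, belong to the interferon gamma list and hold the response element:
Irgm1: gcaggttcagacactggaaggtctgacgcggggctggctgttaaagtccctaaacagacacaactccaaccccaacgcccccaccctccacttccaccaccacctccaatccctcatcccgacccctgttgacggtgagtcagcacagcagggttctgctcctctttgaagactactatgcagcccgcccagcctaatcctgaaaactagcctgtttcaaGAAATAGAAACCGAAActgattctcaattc
Socs1: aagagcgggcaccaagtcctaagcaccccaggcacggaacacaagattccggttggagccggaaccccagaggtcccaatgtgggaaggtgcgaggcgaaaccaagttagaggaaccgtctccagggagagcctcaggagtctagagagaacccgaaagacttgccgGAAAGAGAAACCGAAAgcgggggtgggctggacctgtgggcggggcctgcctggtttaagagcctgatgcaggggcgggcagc
Gbp2: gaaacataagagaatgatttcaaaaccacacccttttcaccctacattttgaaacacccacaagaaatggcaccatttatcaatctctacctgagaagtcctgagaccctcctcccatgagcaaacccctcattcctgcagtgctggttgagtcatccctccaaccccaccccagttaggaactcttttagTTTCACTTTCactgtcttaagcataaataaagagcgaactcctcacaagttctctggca
Irf1, chr11:53769764-53770013, plus strand, holds a gamma-activated site that begins 90 bases before the start, and no response element:
Irf1: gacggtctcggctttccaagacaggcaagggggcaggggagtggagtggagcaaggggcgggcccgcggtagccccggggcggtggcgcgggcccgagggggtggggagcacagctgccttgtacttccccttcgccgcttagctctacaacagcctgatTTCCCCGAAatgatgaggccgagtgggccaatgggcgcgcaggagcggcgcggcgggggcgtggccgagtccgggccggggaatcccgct
Cxcl9, chr5:92328080-92328329, minus strand, is shown because it stood 3.82-fold higher and its window holds neither motif:
Cxcl9: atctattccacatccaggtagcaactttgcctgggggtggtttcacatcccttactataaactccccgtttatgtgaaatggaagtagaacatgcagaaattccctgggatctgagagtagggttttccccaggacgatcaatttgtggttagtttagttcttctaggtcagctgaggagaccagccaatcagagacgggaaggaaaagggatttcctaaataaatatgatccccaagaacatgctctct

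Of the interferon gamma list, 14 of 20 genes had a promoter entry and 8 of these 14 held the response element. Of the type I list, 8 of 17 with an entry held it. Of all 27025 genes in the table, 3.46% did. The gamma-activated site was found in 6 of 14 and 4 of 17, against 8.13% of all genes. The element AAAGGTCA, the binding sequence of NR4A1, was found in 1.55% of all genes and in none of the 6 gate and label marker genes. A match is a description of these letters, and their absence from this window says nothing of the factor.

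Genes of antigen presentation by MHC class II did not stand apart. None of the 7 measured members was at least 1.5-fold higher or lower, and the median log2 ratio was -0.09. Cd74, the invariant chain, stood at 4656 and 4478 CPM, a ratio of 0.962 (0.940 to 0.985). H2-Ab1 stood at 1734 and 1536 CPM, a ratio of 0.886 (0.852 to 0.921). Ciita, the master regulator of the class, stood at 119 and 102 CPM, a ratio of 0.864 (0.744 to 1.01). In the MHC class I list 4 of 20 were at least 1.5-fold higher and none lower, among them Nlrc5, the class I regulator, at 38.1 and 67.6 CPM. Among all genes of at least 10 CPM, 4.91% were higher and 9.51% lower.

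**Figure D5:**
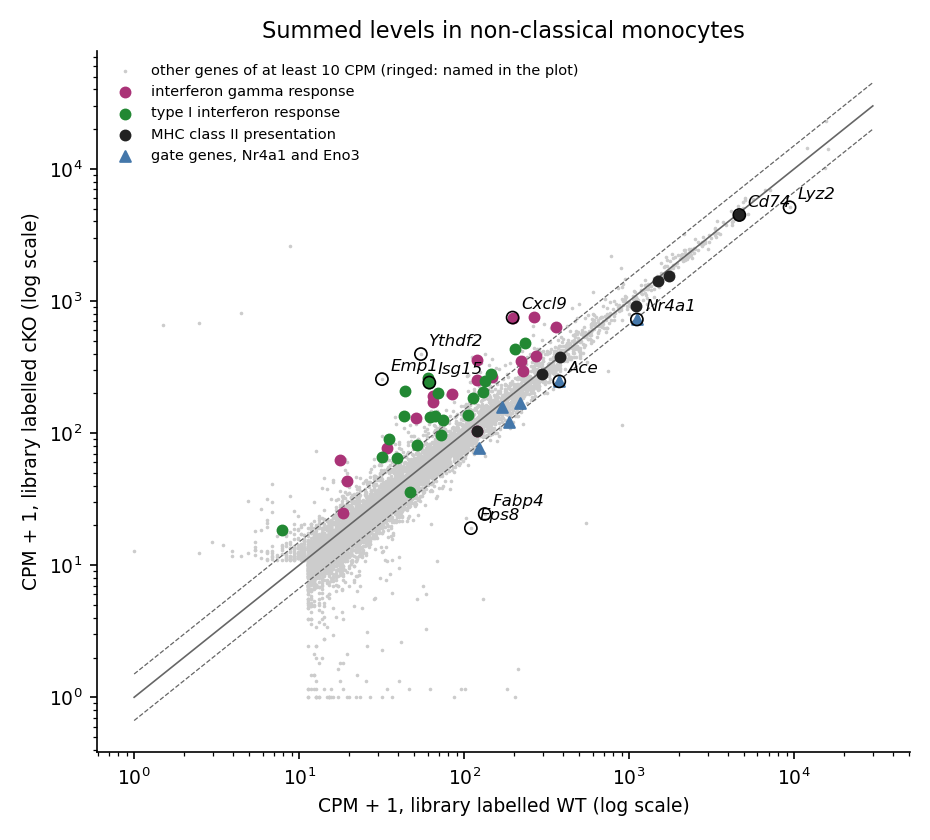
CPM plus 1 of each gene of at least 10 CPM in gated cells, labelled WT (horizontal, log scale) against labelled cKO (vertical, log scale); the solid line is equality, the dashed lines are 1.5-fold, and ringed genes are named. The interferon genes lie above the upper dashed line for the most part, Cd74 and the other MHC class II genes between the lines, and Eps8, Fabp4 and Lyz2 below.

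Genes of the non-classical program itself stood lower in the library labelled cKO under the gate as stated. Nr4a1 had a ratio of 0.650 (0.618 to 0.684), Eno3 0.619 (0.530 to 0.725), Cx3cr1 0.657 (0.596 to 0.725) and Spn 0.701 (0.618 to 0.796). Of 15 other list members 5 were at least 1.5-fold lower and 1 higher, with a median log2 ratio of -0.45. The lowest, Fabp4, is also on the lipid-handling list below, so these lists are not independent. Among all genes of at least 10 CPM, 9.51% were lower and 4.91% higher. With the gated cells kept and only thinned to 4988 UMIs, the list's median was -0.16. Gating after thinning also changes which cells enter. In barcodes gated again after thinning the list's median was 0.13, with 1 higher and 1 lower, where 9.76% and 12.1% of all genes were. Eno3 stood at 136 and 146 CPM there, a ratio of 1.07 (0.831 to 1.39). Nr4a1 stood at 1324 and 1101 CPM there, a ratio of 0.831 (0.764 to 0.905), and Spn at 198 and 222 CPM, a ratio of 1.12 (0.909 to 1.39). In the Ly6c2 strata, in order of Ly6c2, the ratio of Nr4a1 was 0.884 (0.790 to 0.990), 0.825 (0.761 to 0.895) and 0.554 (0.508 to 0.605). Nr4a1 was also lower in Ly6c2 monocytes, at 388 and 285 CPM, and in B cells, at 393 and 254 CPM. It was higher in C1q macrophages, at 61.4 and 103 CPM, and in T cells, at 116 and 137 CPM. The lower level of Nr4a1 was thus not particular to the gated cells.

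Fcgr4, the activating Fc receptor of this cell type, was the list member that stood higher. It stood at 114 CPM (40.1% of cells) and 214 CPM (70.4% of cells), a ratio of 1.87 (1.63 to 2.16). After gating on thinned barcodes the ratio was 2.24 (1.75 to 2.90). Within the Ly6c2 strata the ratios were 2.26, 2.08 and 2.09, in order of Ly6c2. Fcgr4 was also higher in Ly6c2 monocytes, at 70.5 and 138 CPM, and in C1q macrophages, at 124 and 303 CPM. It was lower in T cells, at 13.2 and 6.75 CPM, and in NK cells, at 5.82 and 4.36 CPM. Among barcodes that met every other limit, the ratio was 2.21 at a 4-gene sum of 0, 3.41 at a sum of 2 and 1.41 at 10 or more. The higher level of Fcgr4 was thus not particular to the gated cells. Fcgr1, the high-affinity receptor, stood at 209 and 401 CPM, 1.92-fold higher (1.73 to 2.13). Fcer1g, the signalling chain they share, stood at 2390 and 2390 CPM, a ratio of 1.00 (0.968 to 1.03). Fcgrt, the neonatal Fc receptor, stood at 43.9 and 20.5 CPM. Of the 6 Fc receptor genes measured, 2 were at least 1.5-fold higher, 1 was lower and 3 lay between, among them Fcgr3 with a ratio of 1.40 and the inhibitory Fcgr2b with 1.23. Among all genes of at least 10 CPM, 4.91% were higher and 9.51% lower.

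Classical monocyte genes had a median log2 ratio of 0.26, with 2 of 15 at least 1.5-fold higher and 1 lower. Among all genes of at least 10 CPM, 4.91% were higher and 9.51% lower. Fn1, fibronectin, was among the higher, at 263 and 441 CPM, a ratio of 1.68 (1.53 to 1.84). The one that stood lower was Lyz2, the myeloid lysozyme gene, at 9384 and 5123 CPM, a ratio of 0.546 (0.536 to 0.556). In Ly6c2 monocytes Lyz2 stood at 9691 and 4476 CPM. After gating on thinned barcodes the median was -0.14, and Ly6c2 stood at 1132 and 740 CPM, with a ratio of 0.654 (0.593 to 0.721). There 4 of 15 were at least 1.5-fold lower and none higher, where 12.1% of all genes were lower and 9.76% higher. Fn1 had a ratio of 1.14 (0.948 to 1.37) there. With the gated cells kept and only thinned, the list's median was 0.11. The direction of the list thus changed where both the depth and the cells gated changed.

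Of 17 transcription factors of the lineage measured, 2 were at least 1.5-fold higher and 1 lower. Among all genes of at least 10 CPM, 4.91% were higher and 9.51% lower. Irf8, which directs mononuclear phagocyte fate and responds to interferon gamma, stood at 303 and 670.0 CPM, 2.21-fold higher (2.03 to 2.41). Spi1, which encodes PU.1, stood at 586 and 672 CPM, and Klf2, an endothelial and monocyte factor, at 268 and 278 CPM. Of 17 adhesion and migration receptors, 2 were at least 1.5-fold higher and 3 lower, beside the same shares of all genes. Ccr1, a receptor for inflammatory chemokines, stood at 147 and 362 CPM, 2.45-fold higher (2.18 to 2.78). Icam1, the ligand of LFA-1, stood at 137 and 242 CPM, while Itgb2, the beta chain of LFA-1, stood at 463 and 457 CPM.

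Among cytokines and chemokines, Il1rn, the interleukin-1 receptor antagonist, stood at 124 and 288 CPM, 2.32-fold higher (2.04 to 2.66). Il1b stood at 1422 and 1234 CPM, a ratio of 0.868 (0.832 to 0.906). Ccl2, the main CCR2 ligand, stood at 607 and 1178 CPM, 1.94-fold higher (1.83 to 2.06). Ccl8 stood at 55.2 and 5.97 CPM, and was found in 16.1% of gated cells at 4988 UMIs in the library labelled WT against 10.0% of B cells at 1939 UMIs. In the library labelled WT 1 gated cell held 26.5% of the Ccl8 UMIs. Of 14 survival genes, 1 was at least 1.5-fold higher and 1 lower, with Mcl1 at 1172 and 1321 CPM. Among all genes of at least 10 CPM, 4.91% were higher and 9.51% lower.

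The 13 named genes that stood lowest in the library labelled cKO were Eps8, Fabp4, Fabp5, Lman1, Hist1h1e, Ppp1r14b, Klra2, Zbtb20, Calu, Cdkn1b, Tuba1a, Lyz2 and Cd36. No more than 13 passed the naming rule on this side, against 93 on the other. This imbalance belongs to the floors of the rule: of all genes of at least 10 CPM, 370 were at least 1.5-fold higher and 717 lower. After gating on thinned barcodes, Lman1, Calu, Tuba1a and Cd36 were no longer 1.5-fold lower, with ratios of 0.780, 0.930, 0.942 and 0.719. Eps8, an actin-capping adaptor, stood at 109 CPM (95.03 to 124) and 18.1 CPM (14.9 to 21.8), 6.02-fold lower (4.78 to 7.62). It was found in 46.0% and 15.8% of the cells. In Ly6c2 monocytes it was lower in the library labelled cKO as well, at 219 and 55.5 CPM.

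Of 12 lipid-handling genes measured, 3 were at least 1.5-fold lower and none higher, where 9.51% of all genes were lower, and the median log2 ratio was -0.32. The lowest, Fabp4, also counts in the list of other non-classical monocyte genes. Fabp4, a fatty acid carrier, stood at 132 and 23.4 CPM, a ratio of 0.177 (0.144 to 0.217), although 1 cell held 29.9% of its UMIs in the library labelled WT. Fabp5 stood at 745 and 293 CPM, a ratio of 0.393 (0.367 to 0.421). Cd36, a scavenger receptor that takes up fatty acids, stood at 158 and 86.0 CPM, a ratio of 0.544 (0.473 to 0.626). After gating on thinned barcodes the ratio of Fabp4 was 0.306 (0.199 to 0.464) and that of Cd36 0.719 (0.563 to 0.918), no longer 1.5-fold lower. In the Ly6c2 strata the ratio of Cd36 was 0.488, 0.760 and 0.739. Levels in other cells moved with these genes: Fabp4 stood at 23.1 and 1.63 CPM in T cells, Cd36 at 22.8 and 3.22 CPM, and macrophage markers were lower in the gated cells as well, with summed levels of 1348 and 935 CPM. Their part in the lipid result was not tested. Cd36 and Fabp4 shared cells: Cd36 was found in 58.3% and 65.4% of Fabp4-positive cells and in 27.4% and 26.3% of the others. Both were highest in cells without Ly6c2, Cd36 at 417 and 204 CPM and Fabp4 at 340.1 and 98.9 CPM.

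The gene furthest on the higher side, Emp1, encodes an epithelial membrane protein, and stood at 30.8 CPM (23.6 to 39.3) and 255 CPM (243 to 268), 8.30-fold higher (6.45 to 10.9). It was found in 11.0% and 66.4% of the cells, and in 10.6% and 53.2% at 4988 UMIs. In Ly6c2 monocytes it stood at 169 and 467 CPM. Hspa1a, an inducible heat shock gene, stood at 110 and 376 CPM in the gated cells, with 27.9% of its UMIs in 1 cell in the library labelled WT.

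Signals of other cells in the gated barcodes differed by type. Neutrophil markers summed to 423 and 535 CPM, B cell markers to 186 and 161 CPM, and plasmacytoid dendritic cell markers to 151 and 184 CPM. Eosinophil, mast cell and basophil, and platelet markers summed to under 3 CPM in each library. Macrophage markers were lower in the library labelled cKO in 5 of 8 measured. Pf4, a scavenger macrophage gene, stood at 129 and 4.52 CPM, and 1 cell held 51.3% of its UMIs in the library labelled WT. It was found in 20.7% of gated cells at 4988 UMIs there, against 16.2% of B cells at 1939 UMIs. Melanocytic markers were lower in all 4 measured, with sums of 101 and 14.4 CPM. Cell cycle genes were lower in 6 of 8, with sums of 297 and 174 CPM, although 1 cell held 22.04% of their UMIs in the library labelled WT. Their median log2 ratio was -0.85, and 0.20 with a 4-gene sum of at least 5 over at least 2 of the genes. Of all genes of at least 10 CPM, 9.51% were lower. Their part in the other results was not tested.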

How the data were processed

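The deposited matrices hold counts of UMIs per gene and barcode, made by the authors from mm10 reads. Cell Ranger 5.0.1 is named in the submitters' processing notes, together with Seurat 4.0.4. The matrix header names cellranger 5.0.0. The annotation release is not given in the sources used here. Counts were used as deposited, and 30934 of 31053 genes were matched to GENCODE M21 for coordinates.

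Barcodes were gated with Python 3.11.15, numpy 2.4.6, scipy 1.17.1 and pandas 2.3.3. Each class was summed within its library, and CPM plus a pseudocount of 1 gave log2 ratios. List members needed 10 CPM in a library. Genes were named, up to 15 a side, from those of 50 CPM and 30 UMIs, found in 5% of cells, with a ratio interval beyond 1.5-fold and at least 0.2 of the level of each of 7 other cell classes, in the library or class where they were higher. Mitochondrial, ribosomal protein, haemoglobin, antigen receptor and sex-linked genes and unnamed gene models were left out, and further list members are examples. Genes shown in bins, strata and shares of cells were chosen after values were seen. The ratio intervals were run on simulated Poisson counts, the model that they assume. These counts lacked the clumping of UMIs in single cells, so how the intervals cover real differences between cells was not tested. No doublets were removed. As an alternative the highest scores of Scrublet (scanpy 1.11.5), at 0.8% per 1000 barcodes, were, since its own threshold called 2 and 1 barcodes. Thinning drew UMIs without replacement to 4988 and left out 55 and 16 shallower gated cells. Alternative gates, scalings and filters numbered 16, and 2 more were chosen after seeing the data. The members, lists and rules were chosen with earlier results of these data known. Some list members count in the list totals but are not reported here by name.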

Additional observations from a re-analysis of the deposited data

Results flagged for a closer look

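For 2 marker lists the difference between the libraries had opposite signs in the gated cells and in Ly6c2 monocytes, and this was not tested. Plasmacytoid dendritic cell markers had a median log2 ratio of 0.61 in the gated cells and -1.31 in Ly6c2 monocytes. Of their UMIs in the gated cells of the library labelled cKO, 32.8% came from 1 cell. Erythroid markers had a median of 8.11 in the gated cells and -5.49 in Ly6c2 monocytes, values that depend on the pseudocount since 1 member was at 0 under the label WT. In the gated cells of the library labelled cKO 29620 haemoglobin UMIs were counted, and 4 of 467 cells held at least 10, with 9609 in the highest. In the gated cells of the library labelled WT 27 haemoglobin UMIs were counted and no cell held 10. Erythroid markers summed to 13.2 and 4793 CPM in the gated cells and to 878 and 13.5 CPM in Ly6c2 monocytes.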

How the results depend on the processing

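No paired analysis was possible because each label has 1 library. The log2 ratio of the share, 1.08, was 0.62 with the sum per 10000 UMIs, 0.52 with the gate on thinned barcodes and 0.27 without cells with over 1 Ly6c2 UMI. The interferon gamma median stayed between 0.95 and 1.31 over all alternatives run, and the type I median between 0.72, with the gate on thinned barcodes, and 1.07. The MHC class II median was -0.0195 without cells holding other lineages' UMIs and -0.22 with Ear2 left out of the sum. The other non-classical median was 0.13 with the gate on thinned barcodes, -0.0199 without Ly6c2 cells and -0.16 with gated cells thinned. The classical median was 0.13 with the sum per 10000 UMIs, -0.14 with the gate on thinned barcodes and 0.11 with gated cells thinned. The count of higher genes was 326 without Ly6c2 cells and 1025 with no filter on low values. The count of lower genes was 41 with the sum per 10000 UMIs, 315 without Ly6c2 cells, 69 with equal weight per cell, 69 with median-of-ratios factors and 2405 with no filter. Eno3 was 0.10 with the gate on thinned barcodes, the plasmacytoid median -0.19 at a sum of at least 2, the cell cycle median 0.20 at a sum of at least 5, and without Ly6c2 cells the NK median was -1.59 and the B cell median 1.04. The cause was not tested. None of the 28 named genes changed direction over 18 settings, but of 504 values 17 fell below 1.5-fold and 25 moved by over 1.5 times. The gate needs 3 raw UMIs of genes of low abundance, and the limit of over 1 Ly6c2 UMI counts raw UMIs as well. The share ratio moved furthest with that limit, and the part of depth in this was not tested.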

Other observations

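Several genes far apart between the libraries lie close together on the genome. Klra2, Cdkn1b, Emp1 and Eps8, 4 of the 28 named genes, lie on chromosome 6 between 131219223 and 137654876 (GRCm38). Of 16 genes tested in that interval, 1 was at least 1.5-fold higher in the library labelled cKO and 5 were lower, where 9.46% of all genes tested were past 1.5-fold in either direction. The interval was chosen after the values were seen, from the positions of these genes, so its count is a description. Klra2, a Ly49 family receptor gene, stood at 226 and 116 CPM in the gated cells and at 176 and 105 CPM in Ly6c2 monocytes. Cdkn1b, a cell cycle inhibitor, stood at 131 and 69.9 CPM in the gated cells. Reads of Klra2 may be shared with other members of its family, so its level is uncertain.

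Some genes were found in 1 library alone. Over all deposited barcodes, Klra6 on chromosome 6 had 867 UMIs under the label WT and 0 under the label cKO. Ear1 on chromosome 14 had 181 and 0. C1rb on chromosome 6 had 0 and 169, of which 12 came from gated cells. Ear1 and C1rb each have a near-identical neighbour or paralogue, so their counts are uncertain. Whether the mice of the libraries differ in strain background, or in how the reference fits them, at these genes or in the interval above was not tested, and it cannot be told apart from an effect of the label on Emp1, Eps8 and Klra2. With Ear2, the paralogue of Ear1, left out of the 4-gene sum, the gate held 237 and 422 cells and the ratio of shares was 2.20 (1.87 to 2.59).

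Collagen genes in the gated cells of the library labelled WT came from a single barcode, with 431 of 434 UMIs in 1 cell. Without that cell and the haemoglobin-rich cells, 271 and 463 cells were left and the ratio of shares was 2.11 (1.81 to 2.46).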
